A study of Mus musculus with 6 samples.

Results

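The microRNAs (miRNAs) miR-143 and miR-145 (mmu-miR-143 and mmu-miR-145 on the array) were measured in whole dorsal skin from C3H/HeJ mice. This inbred strain can lose its hair to spontaneous alopecia areata (AA), a disease in which the immune system attacks hair follicles. Their probes were found by exact probe name among the 707 mouse miRNA probes of each array, taking the unstarred mature strands only, and both members were present with 5 spots each. The 6 arrays were 1-colour arrays stained with Cy3 that held 1 sample each: 3 of skin with hair loss from mice with spontaneous AA and 3 of normal haired skin from unaffected control mice. The AA in these mice arose spontaneously, and the labels name no treatment, transgene, age or sex for either group. The design note speaks of several samples from each mouse without tying them to arrays, so a mouse may be behind more than 1 array. The p-values reflect array-to-array spread alone, part of which may be technical.

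Both miRNAs are cut from 1 primary transcript and are known as the characteristic miRNAs of smooth muscle, where serum response factor and its coactivator myocardin drive their transcription. miR-145 represses Klf4 and Klf5, transcription factors that hold smooth muscle cells in a proliferating state, and miR-143 represses Elk1, a factor that competes with myocardin, so the pair is known for favouring the contractile state of vessel walls. In skin, smooth muscle lies in the walls of blood vessels and in the arrector pili, the small muscles that erect the hairs, and both miRNAs are also found in fibroblasts. In the RefSeq annotation (GRCm38.p6) the genes Mir143 and Mir145a both lie within Carmn, a long non-coding RNA gene also known as the miR-143 host gene. The array names do not distinguish Mir145a from a further annotated gene, Mir145b, although miR-145 is listed as the older name of the former.

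The target of the miR-143 probe is 21 bases long with a GC content of 47.6%, and that of the miR-145 probe is 23 bases long with 52.2%. The pair share a transcript but little sequence: their targets differ by 14 edits. Bases 2 to 8 of a miRNA, its seed, select its target mRNAs. Of the 707 probes, 0 others had the same bases 2 to 8 as miR-143 and 0 others the same as miR-145. The nearest probe to miR-143 was that of miR-322*, at 7 edits, and the nearest tested miRNAs were let-7c, let-7f, miR-146b and miR-1195, at 9 edits. The nearest to miR-145 were miR-26a and miR-671-3p, also at 9 edits. The 4 sequences that follow belong to the miRNAs whose values ran most closely with the pair over the 6 arrays, miR-206 and miR-26a with miR-143, and miR-193 and miR-676 with miR-145. They are the target sequences of the deposited files, identical to mature miRNAs of RefSeq (GRCm38.p6), with the seed in capitals. As 0 other probes share a seed with either member, any miRNA of similar values had to differ from it in seed.
miR-206: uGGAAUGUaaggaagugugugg
miR-26a: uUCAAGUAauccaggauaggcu
miR-193: aACUGGCCuacaaagucccagu
miR-676: cCGUCCUGagguuguugagcu

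Both miRNAs were detected on all 6 arrays, where detection means that the mean raw intensity was above that of 95% of the array's empty control spots. The raw intensity is the mean brightness of a spot in scanner units, before any background correction. For miR-143 the mean over the 5 spots was 780, 5806 and 3036 on the unaffected arrays, in order of replicate number, against 761, 1126 and 1078 on the AA arrays. Unaffected replicate 1 therefore lay among the AA arrays, and the groups overlapped. For miR-145 the raw means, in the same order, were 2259, 6768 and 3895 on the unaffected and 1705, 2088 and 993 on the AA arrays. All 3 AA arrays lay below all 3 unaffected arrays, by a small margin between AA replicate 2 and unaffected replicate 1. Raw groups lay apart in this direction for 8.28% of the 157 tested miRNAs.

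**Figure D1:**
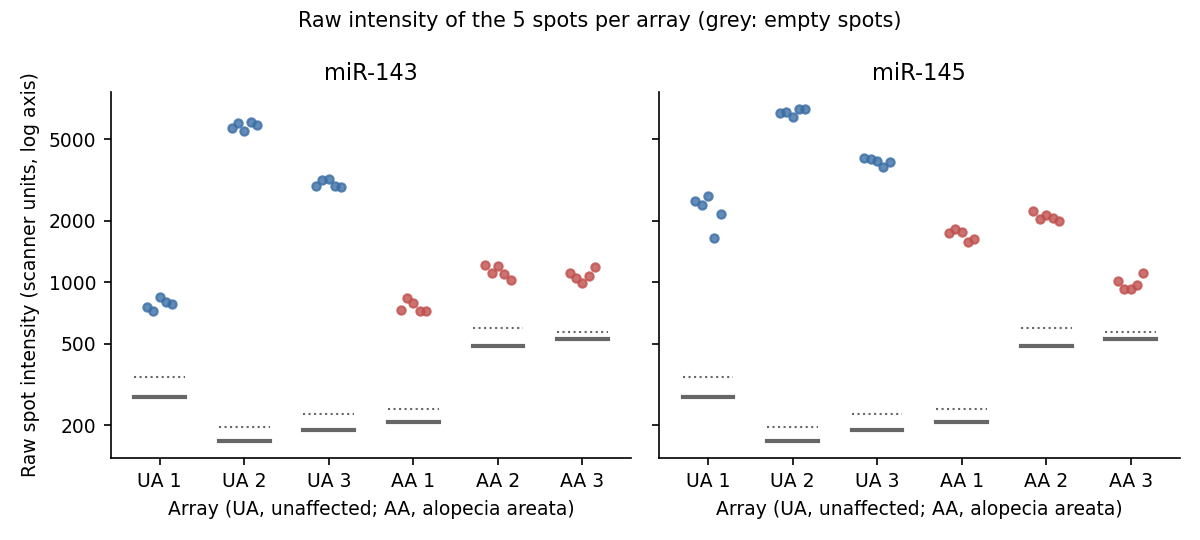
Raw intensity of the 5 spots of miR-143 (left) and miR-145 (right) on each array, on a log axis in scanner units. Each point is a spot, the solid grey line is the median of the array's empty control spots and the dotted line is the detection threshold. The spots of an array lie close together while unaffected replicates 2 and 3 lie well above the other arrays for both miRNAs, and the AA arrays of replicates 2 and 3 have the highest empty-spot levels.

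The spots of 1 array varied little. The coefficient of variation over the 5 spots of miR-143 was 4.39% to 7.09%. That of miR-145 was 3.86% to 7.55% on 5 arrays and 17.4% on unaffected replicate 1, where its spots ran from 1635 to 2646. The median over all tested miRNAs was 5.96% to 8.23% per array. Between the 3 unaffected arrays the raw mean of miR-143 differed by 7.44-fold and that of miR-145 by 3.00-fold. Between the 3 AA arrays the ratios of highest to lowest were 1.48 and 2.10. These raw ratios between arrays include the brightness of each array.

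Raw intensities carry the brightness of the whole array. The median of the empty spots was 168 to 274 on the unaffected arrays and 209 to 530 on the AA arrays. On unaffected replicate 1 the empty spots were brighter than the median miRNA probe (274 against 168), as on AA replicate 2 (490 against 391). On the remaining arrays these medians lay close together. Ratios to the empty spots, and detection, are thus set against a relatively higher level on unaffected replicate 1 and AA replicate 2. Set against the empty spots of its own array, miR-143 stood at 2.85, 34.7 and 16.0 times their median on the unaffected arrays and at 3.64, 2.30 and 2.03 times on the AA arrays. miR-145 stood at 8.25, 40.4 and 20.6 times on the unaffected arrays and at 8.16, 4.26 and 1.87 times on the AA arrays. The miR-145 groups did not overlap on this scale, AA replicate 1 lying just under unaffected replicate 1, and 31.8% of tested miRNAs had groups apart in the same direction. On this scale the log2 difference, AA minus unaffected, was -2.18 for miR-143 (exact permutation test, two-sided p = 0.2) and -2.24 for miR-145 (exact permutation p = 0.1, the smallest that 3 arrays against 3 allow). The 88 miRNAs detected on every array had a median difference of -1.82, and all 88 lay below 0. Ordered from the lowest, miR-143 was at place 26 and miR-145 at place 23 of these 88. The lower signal over background on the AA arrays was thus common to the bright probes, and its part in the members' raw difference was not tested.

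The place of a probe among the 707 probes of its own array, from the brightest at 1, depends on no scaling of the array. miR-143 held places 62, 29 and 36 on the unaffected arrays and 42, 66 and 30 on the AA arrays. miR-145 held places 24, 27 and 30 on the unaffected arrays and 26, 34 and 33 on the AA arrays. The groups overlapped for both. The mean place of miR-143 was 42.3 in unaffected and 46.0 in AA skin (exact permutation p = 0.7), and that of miR-145 was 27.0 and 31.0 (exact permutation p = 0.3).

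After background correction and quantile normalization, which gives all arrays the same distribution of values, neither miRNA differed between AA and unaffected skin beyond the spread between arrays. The normalized log2 intensity of miR-143 was 9.63, 11.06 and 10.61 on the unaffected arrays and 10.35, 9.43 and 10.96 on the AA arrays, again in replicate order. The values of the groups interleaved, with the lowest and the second highest both from AA skin. AA skin averaged 10.25 ± 0.77 and unaffected skin 10.44 ± 0.73 (SD, n = 3 arrays each). The difference of -0.19 (SE 0.51, limma adjusted p = 0.952) corresponds to a level 1.14-fold lower in AA, with a 95% interval for the ratio of AA to unaffected of 0.398 to 1.93. A level lower by more than a halving and one higher by nearly a doubling both lie within that interval. The direction rested on single arrays: the difference was 0.12 without unaffected replicate 2 and 0.22 without AA replicate 2, and -0.59 without unaffected replicate 1 and -0.55 without AA replicate 3.

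The normalized log2 intensity of miR-145 was 11.43, 11.18 and 10.96 on the unaffected arrays and 11.24, 10.75 and 10.78 on the AA arrays. AA replicates 2 and 3 lay below all unaffected arrays, and AA replicate 1 lay above unaffected replicates 2 and 3, so the groups overlapped. AA skin averaged 10.92 ± 0.28 and unaffected skin 11.19 ± 0.23 (SD, n = 3 arrays each). The difference of -0.27 (SE 0.37, limma adjusted p = 0.810) corresponds to a level 1.20-fold lower in AA, with a 95% interval for the ratio of 0.471 to 1.46. It kept its sign with each array left out, at -0.43 when AA replicate 1 was omitted and -0.15 when unaffected replicate 1 was. In whole skin, fewer cells of a type and less RNA per cell cannot be told apart.

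**Figure D2:**
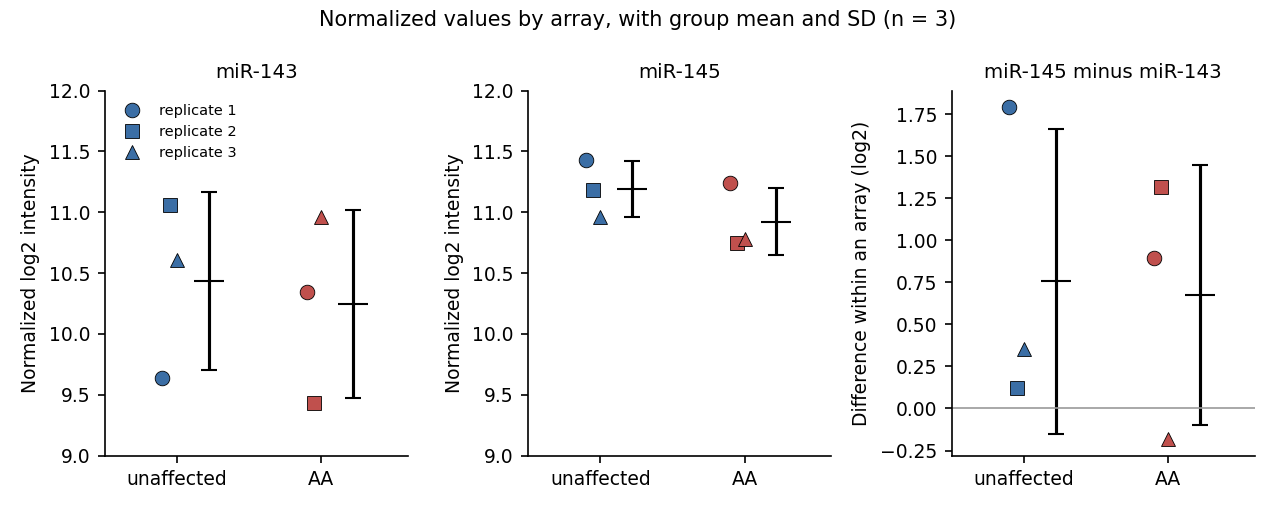
Normalized log2 intensity of miR-143 and miR-145 and their within-array difference (log2), by group, with 1 symbol per replicate and the group mean ± SD (n = 3) in black. miR-143 spans 9.43 to 11.06 with both groups interleaved, miR-145 stays between 10.75 and 11.43, and the difference runs from 1.79 in unaffected replicate 1 to -0.18 in AA replicate 3.

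Against the background of all miRNAs, 0 of 157 tested (0%) passed an adjusted p of 0.05 in limma (smallest adjusted p = 0.402), 12 (7.64%) had an unadjusted p under 0.05, and 18 (11.5%) had normalized groups that did not overlap, lower in AA for 7.01% and higher for 4.46%. Neither member was among these 12 or these 18. By size of the normalized log2 difference, miR-145 was at place 102 and miR-143 at place 116 of 157. The pooled SD within groups was 0.75 for miR-143, at place 128 of 157 from the smallest, and 0.25 for miR-145, at place 10, against a median of 0.50 over the tested miRNAs. Between arrays of a group, the normalized values of miR-145 were thus among the least spread of the tested miRNAs. Those of miR-143 were among the more spread.

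The normalized values of the pair showed no clear relation from array to array, although 6 arrays cannot exclude one. Probes differ in how strongly they bind, so the level of 1 probe over another carries no meaning and only its change between arrays is read. On the raw scale the ratio of miR-145 to miR-143 was 2.90, 1.17 and 1.28 on the unaffected arrays and 2.24, 1.85 and 0.921 on the AA arrays, a 3.14-fold span. This raw ratio includes background: on AA replicate 3 miR-143 stood at only 2.03 and miR-145 at 1.87 times the empty spots. The normalized log2 difference of miR-145 minus miR-143 was 1.79, 0.12 and 0.35 on the unaffected arrays and 0.90, 1.32 and -0.18 on the AA arrays. The ratio was high on unaffected replicate 1 and AA replicates 1 and 2, and low on the other arrays, so each group held both kinds. It averaged 0.68 ± 0.77 in AA skin and 0.76 ± 0.91 in unaffected skin (SD, n = 3 arrays each), a difference of -0.079 (exact permutation p = 1). The sign of so small a difference turned to 0.44 without unaffected replicate 1 and to 0.35 without AA replicate 3. Over all 6 arrays the normalized values spanned 1.63 for miR-143 and 0.68 for miR-145, so the miR-143 probe was the more variable of the pair.

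Over the 6 arrays, the normalized values of miR-143 and miR-145 correlated at Pearson's r = -0.092 (exact permutation p = 0.832, adjusted 0.832 over the 2 scales examined) and Spearman's rho = 0.029 (exact permutation p = 1, adjusted 1). Without AA replicate 2 and unaffected replicate 1, the arrays farthest from the median of miR-143, r was -0.38. On the log2 raw scale, where the brightness of an array moves both probes, r was 0.85 (exact permutation p = 0.0264, adjusted 0.0528) and rho 0.71 (exact permutation p = 0.136, adjusted 0.272). The raw relation rested on unaffected replicates 2 and 3, without which r was -0.39. With 3 arrays a group, no correlation within a group was computed. Among the other 156 tested miRNAs, miR-145 was at place 86 in likeness to miR-143, and miR-143 at place 108 in likeness to miR-145, by Pearson's r of normalized values.

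The 5 miRNAs of most similar pattern to miR-143 over the 6 arrays were miR-206 (r = 0.97), miR-26a (0.94), miR-22 (0.84), miR-185 (0.83) and miR-223 (0.81). miR-206, a miRNA of skeletal muscle, had normalized values of 8.60, 9.99 and 9.90 on the unaffected arrays and of 9.71, 8.33 and 10.35 on the AA arrays. Like miR-143 it was low on unaffected replicate 1 and AA replicate 2 and high on AA replicate 3. miR-26a, a widely expressed miRNA, ran in a similar way within a narrower band, from 12.17 on unaffected replicate 1 to 12.85 on AA replicate 3. The 5 miRNAs nearest in pattern to miR-145 were miR-193 (r = 0.95), miR-676 (0.87), let-7d* (0.85), miR-328 (0.83) and miR-744 (0.82). They were dim: the raw mean of miR-193 was 256 to 574 over the 6 arrays and that of miR-676 was 283 to 548. So were miR-185 (252 to 594) and miR-223 (229 to 805) of the miR-143 list. Of the 6 arrays, miR-193 and miR-185 were detected on 4, and miR-676 and miR-223 on 3. The lists share no miRNA. These correlations describe 6 arrays, were the highest of 156 and were not tested.

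**Figure D3:**
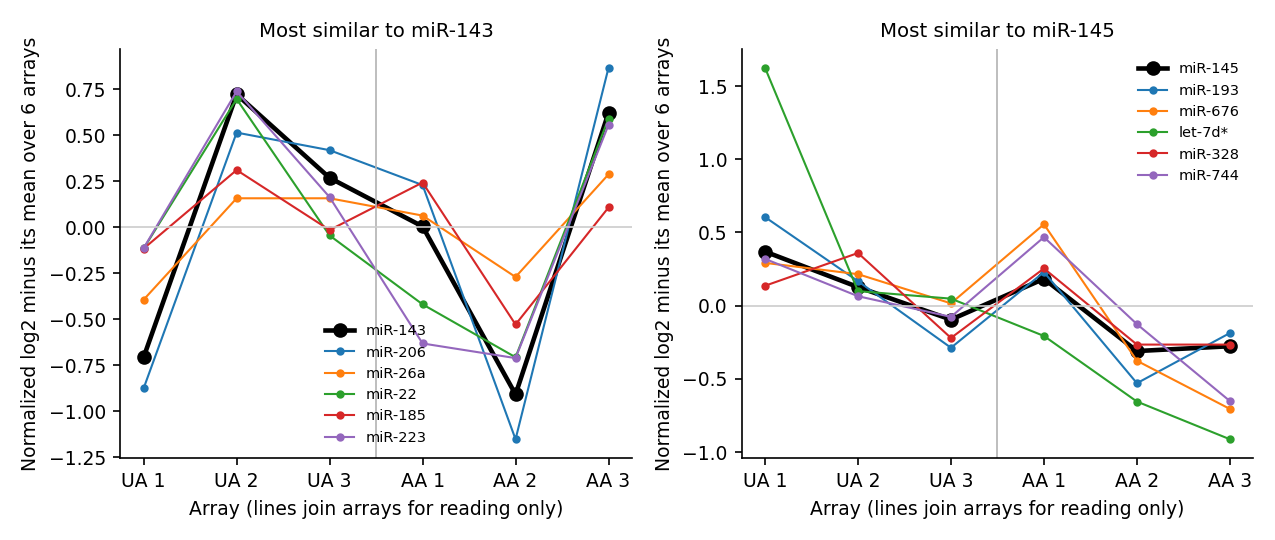
Normalized log2 intensity minus its mean over the 6 arrays for miR-143 (left, black) and miR-145 (right, black) with the 5 miRNAs of most similar pattern to each. UA is unaffected, and the lines only join values of 1 miRNA. miR-143, miR-206 and miR-26a are low on unaffected replicate 1 and AA replicate 2 and high on AA replicate 3, miR-22 and miR-223 are lowest on AA replicates 1 and 2, and miR-145 is highest on unaffected replicate 1 and low on AA replicates 2 and 3.

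The passenger strand, which is cut from the other arm of a hairpin and mostly degraded, was represented by miR-145* alone. Its raw mean was 0.563, 0.980 and 0.989 times the median of the empty spots on the unaffected arrays and 0.995, 0.653 and 1.02 times on the AA arrays. It was detected on 0 of 6 arrays and so was not tested.

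The labelled tissue was checked by skin epithelial miRNAs, of which 7 of 7 on the array were tested and 6 were detected on all 6 arrays. The epidermal miR-205 stood at 41.1 to 128 times the empty-spot median on the unaffected arrays and at 2.89 to 29.3 times on the AA arrays. On this scale all 88 miRNAs detected on every array were lower in AA. After normalization miR-205 differed by -0.34 (SE 0.53, limma adjusted p = 0.867).

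Lists of miRNAs of smooth muscle and of other cell types of skin were set beside the pair. Of 11 miRNAs known to influence the state of smooth muscle cells, 9 were tested and 0 passed the adjusted threshold. Their median normalized log2 difference was 0.33, with 7 means higher and 2 lower in AA. Over all 157 tested the median was -0.039, with 73 higher and 84 lower. The 2 lower of the list were miR-1 and miR-133a (-0.76, SE 0.47), both also on the skeletal muscle list. The list pools miRNAs whatever the direction of their influence, so its median gives no direction for the state of smooth muscle. Without normalization the list's median was -0.50 with 9 of 9 means lower in AA, although it still lay 0.35 above the median of all tested miRNAs. The members of smallest p were miR-146a, an inhibitor of inflammatory signalling (0.94, SE 0.39, limma adjusted p = 0.566), and miR-222, which promotes smooth muscle proliferation (0.71, SE 0.37, limma adjusted p = 0.588). miR-1 of the same list, also a skeletal muscle miRNA, had practically the same p and a difference of -2.01 (SE 1.05, limma adjusted p = 0.588). For miR-146a and miR-222, the 3 AA arrays lay above the 3 unaffected arrays, as for 4.46% of tested miRNAs. The 5 tested mesenchymal miRNAs had a median of 0.035, with miR-214 at 0.48 (SE 0.44) and miR-152 at -0.80 (SE 0.40), and 0 passed. The median of this list turned to -0.077 with cyclic loess and to -1.03 without normalization, where that of all tested miRNAs was -0.84. miR-143 and miR-145, at -0.19 and -0.27, lay within the range of this list, as they did within those of the smooth muscle state, skeletal muscle, skin epithelial and leukocyte lists.

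The 3 tested miRNAs of vessels and red cells had a median difference of -0.58, and 0 passed. The endothelial miR-126-3p, from the inner layer of the vessels whose wall holds smooth muscle, had normalized values of 9.02, 11.24 and 10.35 on the unaffected arrays and of 9.60, 9.25 and 8.71 on the AA arrays. Its AA arrays lay within or below the unaffected range (difference -1.01, SE 0.55, limma adjusted p = 0.599). Over 5 other scalings, the deposited table included, the median of this list ran from -1.89 to -0.32. The median of all tested miRNAs itself ran from -0.95 to 0.53 over these scalings. The red-cell miRNA miR-451 differed by -0.58 (SE 1.01). The 4 tested skeletal muscle miRNAs had a median of -0.83, with -2.36 to -0.58 over the other scalings, and 0 passed. Among them miR-1 differed by -2.01 (SE 1.05) and miR-133b by -0.90 (SE 0.46), while miR-206, which tracked miR-143 over the arrays, differed by -0.038 (SE 0.58). The 7 skin epithelial miRNAs had a median of -0.39, with 6 means lower and 1 higher in AA, and 0 passed. Over the other scalings their median ran from -1.66 to -0.19. With a common 75th percentile for the probes detected on every array, 3 means were higher and 4 lower. In that setting the median of all tested miRNAs was 0.53. Relative to the median of all tested miRNAs, the list's median lay at -0.71 there and at -0.36 with quantile normalization. The lowest were miR-200a at -0.80 (SE 0.38) and miR-200b at -0.63 (SE 0.42). In contrast, miR-203 differed by -0.048 (SE 0.46) and miR-200c by 0.28 (SE 0.38). Of the leukocyte miRNAs, miR-150 of lymphocytes differed by 0.74 (SE 0.40) and miR-223 of neutrophils by -0.52 (SE 0.46), and the other 3 of 5 on the array were detected on 0 of 6 arrays. The part of these cell types in the members' values was not tested.

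**Figure D4:**
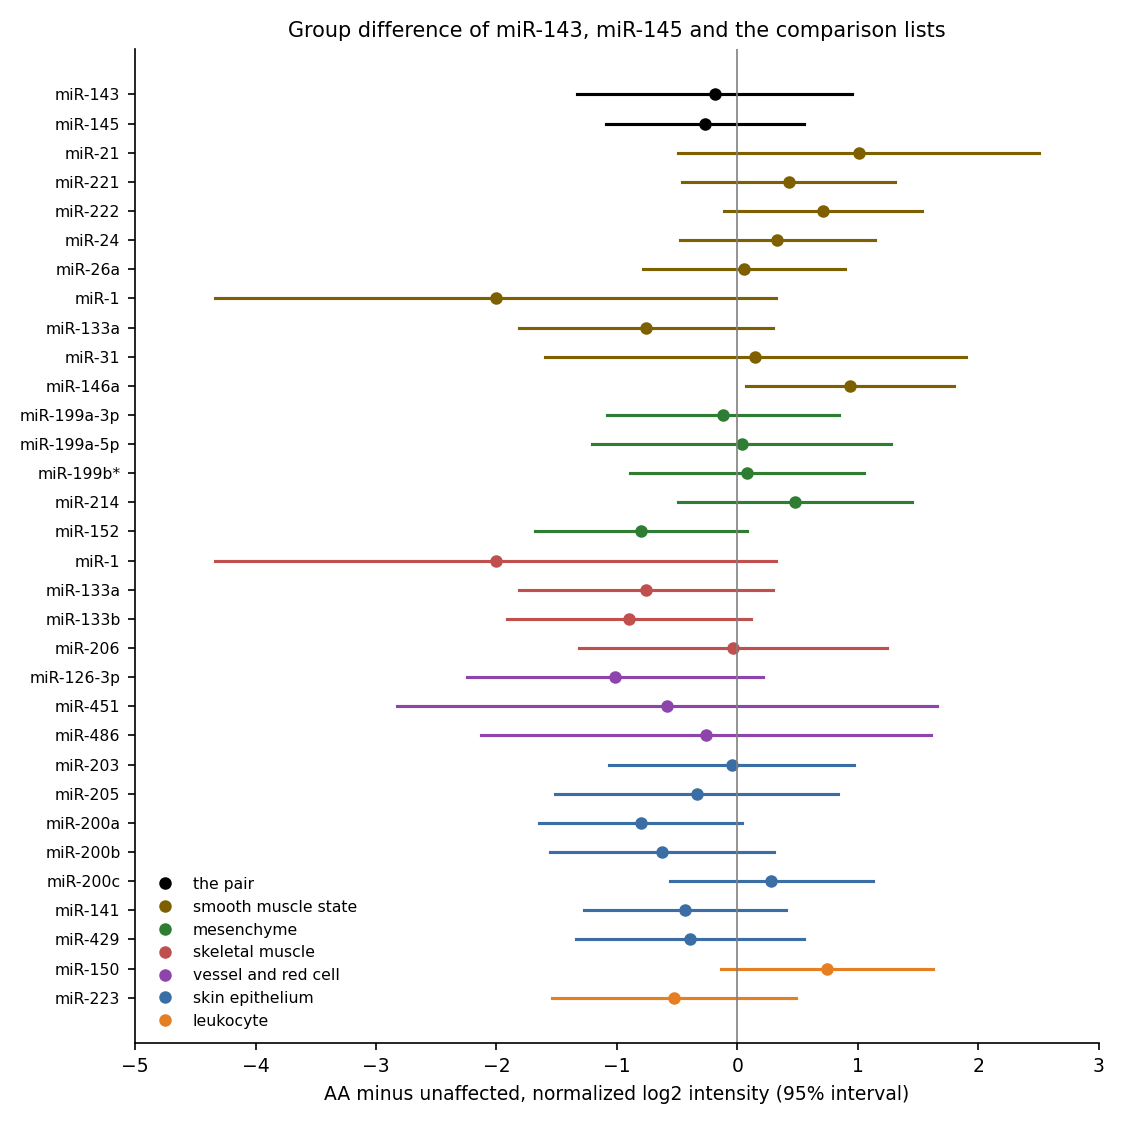
Normalized log2 difference, AA minus unaffected, with its 95% interval from the limma fit (n = 3 arrays a group), for miR-143, miR-145 and each tested miRNA of the comparison lists, where miR-1 and miR-133a belong to both the smooth muscle state and the skeletal muscle lists. The intervals of miR-143 (-1.33 to 0.95) and miR-145 (-1.09 to 0.55) both span 0.

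The difference between the groups was sensitive to how arrays were put on 1 scale. Without normalization between arrays, after background correction, it was -1.64 for miR-143 and -1.67 for miR-145, and the median of all tested miRNAs was -0.84. With a common 75th percentile for the probes detected on every array it was -0.27 and -0.30, with a median of 0.53. With a common 75th percentile for all 707 probes it was -1.75 and -1.77, with a median of -0.95. Relative to that median, the members lay at -0.80 and -0.82 in these 3 settings, against -0.15 and -0.23 with quantile normalization. The 3 settings differ only by 1 constant per array, so their relative values are the same by construction. Neither member passed an adjusted p of 0.05 in any of the 3 settings (limma adjusted p = 0.0708 to 0.745). Without normalization, the 88 miRNAs detected on every array had a median of -1.31, and among these miR-143 was at place 31 and miR-145 at place 30 from the lowest.

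Other settings moved miR-143 by over 1.5 times. Cyclic loess gave -0.43 and array weights -0.51. The slope of normalized log2 intensity on target GC content, per 10 percentage points, was -0.36 to -0.077 on the unaffected arrays and 0.0068 to 0.17 on the AA arrays, with no overlap. With that trend removed from each array the difference of miR-143 was -0.067 and that of miR-145 was -0.28. Array weights gave -0.13 for miR-145, and the deposited value table also gave -0.13.

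**Figure D5:**
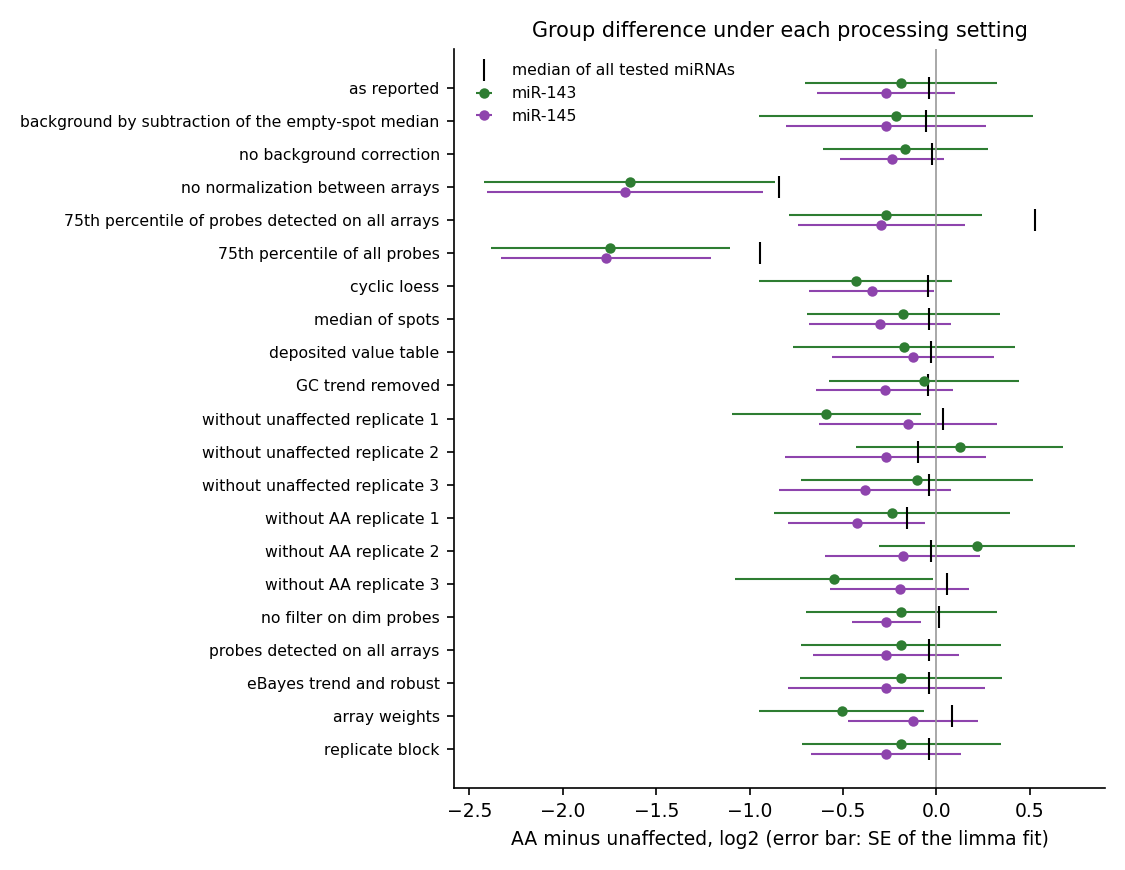
Log2 difference, AA minus unaffected, of miR-143 and miR-145 under each processing setting, with the SE of the limma fit as error bar and the median of all tested miRNAs as a black tick. Most settings lie between -0.59 and 0.22, and the values without normalization and with all probes at a common 75th percentile lie between -1.77 and -1.64.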

How the data were processed

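The authors deposited 1 scanner file per array with the raw intensity of each spot, before background subtraction or normalization, per the file headers and values. Per the labels' protocols, RNA was tailed with poly(A), tagged for Cy3 and measured on µParaflo chips at a service provider. For the image software, the name is not given in the sources used. Each array had 3968 spots, 3535 of them miRNA spots and 145 empty or background controls. The normexp method of limma 3.58.1 (R 4.3.3), fitted to all spots with an offset of 50, corrected the background. The 5 spots of a probe were averaged on the log2 scale, and arrays were quantile-normalized over 707 probes. The offset compresses differences of dim probes. The 157 miRNAs detected on at least 3 arrays were tested by limma (two-sided, Benjamini-Hochberg, threshold 0.05), and single values by exact permutation over arrays. The number of arrays limits the precision. The procedure was tested on simulated data. The processed intensity table deposited by the authors is linear, correlated with the raw log2 values at r = 0.956 to 0.999 over the 88 probes detected on all arrays, and served as an alternative; its column medians over the 707 probes were 42.1, 38.0 and 38.6 on the unaffected and 37.0, 43.9 and 33.6 on the AA arrays, in replicate order, and its scaling method is unknown. The named miRNAs were the pair, the passenger strands and the 2 of smallest p in each list. The 5 of most similar pattern and the nearest in sequence were also named. miR-205 was added after its values were seen, and miR-203, miR-200c and miR-133a were likewise named outside this rule. The members and lists were chosen with earlier results of these data known.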

Additional observations from a re-analysis of the deposited data

How the results depend on the processing

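For miR-145 all 20 alternatives kept the lower AA mean and stayed above the adjusted threshold (limma, log2 difference -1.77 to -0.13, adjusted p = 0.0708 to 0.957). Of these, 4 (no filter on dim probes, only probes detected on all arrays, eBayes with trend and robust, and the replicate block) change the error or the adjustment and leave the difference itself as it was. For miR-143, 18 of 20 kept the lower mean, and none passed (limma adjusted p = 0.0924 to 0.977). The direction turned without unaffected replicate 2 (0.12) and without AA replicate 2 (0.22), and with single arrays left out the difference ran from -0.59 to 0.22; for miR-145 it ran from -0.43 to -0.15. The count of called miRNAs was 0 in 18 of 20 alternatives; with single arrays left out it ran from 0 to 5, at 5 without unaffected replicate 1 and 2 without unaffected replicate 2, neither member among them. The difference in miR-145 minus miR-143 ran from -0.40 to 0.44 with single arrays left out, and was 0.083 with cyclic loess and 0.047 with the deposited value table; the cause was not tested. With the replicate number as a block, the differences were the same by construction (-0.19 and -0.27, -0.079 for the pair's difference), with adjusted p = 0.951 for miR-143 and 0.849 for miR-145 in limma and 0 calls. The labels state no pairing, so the numbers were not taken to pair the arrays. Arrays of the same number deviated together at r = 0.14, -0.10 and -0.12, but each value comes from 1 pair of arrays and cannot exclude pairing. By the bright probes, signal over background was lowest on AA replicate 3, at 1.46 times the empty spots. On the other arrays it was 3.24 to 16.9 times. The count of detected miRNAs gave another order, with 97, 202 and 202 on the unaffected and 147, 115 and 157 on the AA arrays. That count was lowest on unaffected replicate 1, where the empty spots were brighter than the median miRNA probe.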

Other observations

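The authors' deposited table gives processed intensities for the pair on a linear scale. For miR-143 it lists 662, 2164 and 1435 on the unaffected arrays, in replicate order, and 1070, 645 and 2072 on the AA arrays, with both groups interleaved. For miR-145 it lists 2145, 2430 and 1871 on the unaffected arrays and 2711, 1546 and 1786 on the AA arrays, where AA replicate 1 is the highest of all and AA replicates 2 and 3 the lowest. In that table the log2 difference of miR-145 minus miR-143 was 1.70, 0.17 and 0.38 on the unaffected arrays and 1.34, 1.26 and -0.21 on the AA arrays. The high values again fell on unaffected replicate 1 and AA replicates 1 and 2. With the AA minus unaffected comparison made on these values, miR-143 differed by -0.17 and miR-145 by -0.13 on the log2 scale (limma adjusted p = 0.947 for both).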
